A study of Mus musculus with 20 samples.

Results

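Collagen genes were taken as every gene symbol of the deposited count tables made of Col, a chain-type number, the letter a and a chain number, which gave 44 of 55367 genes listed. Each symbol stands for 1 chain, and the chains were sorted by the type of collagen they form into 11 fibrillar, 6 basement membrane, 10 network, 9 FACIT, 4 transmembrane and 4 multiplexin and other genes. The genes were measured in the left atrium and left ventricle of newborn C57BL/6J mice kept in 100% oxygen (hyperoxia) or in room air with 21% oxygen from birth to postnatal day 4. The hearts were taken on that day, each library came from 1 individual pup, and nursing dams were moved between the oxygen levels every day, per the labels. There were 5 libraries of hyperoxic left atria, 5 of room-air left atria, 5 of hyperoxic left ventricles and 5 of room-air left ventricles. In the labels the groups differ by chamber and oxygen only, and no transgene or mutation is given. Their sex-linked reads, described below, also differed between the oxygen levels. The numbers in the labels are used here to name libraries (hyperoxic ventricles carry 1, 2, 4, 5 and 6).

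A collagen is built from chains that wind into a triple helix inside the cell, are exported as procollagen, trimmed and then assembled outside it. Fibrillar collagens such as types I, III and V form the tensile fibrils of the heart wall and are made mainly by fibroblasts. Type IV collagens form the sheet-like basement membrane around cardiomyocytes and vessels. Type VI forms beaded filaments that link cells to the matrix, type VIII forms hexagonal nets found in vessels and valves, and FACIT collagens sit on the surface of fibrils and space them. Transmembrane collagens span the cell membrane, and the multiplexins XV and XVIII bind basement membranes to the tissue beneath.

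Total counts ran between 26510081 and 38244117 per library. Differences are log2 differences ± SE, hyperoxia minus room air or atrium minus ventricle, from edgeR's quasi-likelihood fit over all 20 libraries, and a gene is said to rise, fall or be called where its Benjamini-Hochberg adjusted p over 16598 genes was under 0.05. Levels are counts scaled to library size (CPM) on TMM-scaled library sizes, and comparisons of levels between genes use CPM per kb of exon. Exon length is that of all annotated exons of a gene merged, such as 12426 bp for Col1a2 and 6563 bp for Col1a1. Ranks per kb and the sign of a ratio between chains depend on this length. The difference of such a ratio between groups does not. The filter on low counts kept 41 of the 44 collagen genes. Not kept were Col19a1 with at most 1 read, Col10a1 with at most 5 and Col6a4 with at most 6 reads in any library. Hyperoxic atria 2 and 4 and room-air ventricle 4 stood apart: across 11128 genes their log2 CPM, taken as the deviation from the mean of the same chamber, fell with the log2 of exon length, with slopes of -0.295, -0.290 and -0.226, while the other libraries had slopes between -0.071 and 0.136. Sex is not in the labels. More Y-linked than Xist reads were held by 1 of 5 hyperoxic atria, 2 of 5 hyperoxic ventricles and all 10 room-air libraries, so that the effects of sex and oxygen cannot be told apart beyond the fits with a Y-linked covariate. Myl7, an atrial myosin light chain, ranged between 2.66 and 128 CPM in hyperoxic ventricles and between 19.5 and 529.5 CPM in room-air ventricles, and Myl2, its ventricular relative, reached 327.9 CPM in room-air atrium 1 against at most 22.0 CPM in the other atria.

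Collagen genes of the mouse genome (GRCm38.p6, GENCODE vM21 annotation) include pairs that share a start region. Col4a1 (chr8:11198423-11312826, minus strand) and Col4a2 (chr8:11312805-11449287, plus strand) are read away from each other, and their annotated 5′ ends overlap by 22 bp. Col4a4 (chr1:82448423-82586849, minus strand) and Col4a3 (chr1:82586921-82722059, plus strand) lie head to head 71 bp apart. Col4a6 and Col4a5 lie head to head 1308 bp apart on the X chromosome. RefSeq promoter windows of 300 bases (250 before the start of transcription and 50 after it, GRCm38.p6) were matched by symbol for 35 of the 44 genes. Windows were searched for 3 motifs on both strands. These were the CCAAT box with the letters CCAAT, the GC box with the letters GGGCGG and the TATA box with the letters TATAAA. Each was also searched as its reverse complement, and no motif contains another. The GC box letters were in 60.5% of 38 collagen windows and in 35.7% of 32851 windows of all genes, CCAAT in 34.2% against 37.4%, and TATAAA in 13.2% against 13.6%. The windows below belong to some chains of the type IV and network classes, chosen for their differing behaviour. Col4a1 and Col4a2 were not called in any comparison of oxygen, Col4a4 and Col6a3 fell in the hyperoxic atrium, and Col8a1 rose there. Each is given on the strand of its gene, 5′ to 3′, with the searched letters in capitals.
Col4a1 (chr8:11312777-11313076, minus strand): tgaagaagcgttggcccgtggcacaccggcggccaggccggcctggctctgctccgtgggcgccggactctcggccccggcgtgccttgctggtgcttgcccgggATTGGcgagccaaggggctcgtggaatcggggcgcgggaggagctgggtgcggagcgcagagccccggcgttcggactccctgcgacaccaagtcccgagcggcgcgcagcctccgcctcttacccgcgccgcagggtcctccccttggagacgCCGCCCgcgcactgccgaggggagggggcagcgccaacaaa
Col4a2 (chr8:11312555-11312854, plus strand): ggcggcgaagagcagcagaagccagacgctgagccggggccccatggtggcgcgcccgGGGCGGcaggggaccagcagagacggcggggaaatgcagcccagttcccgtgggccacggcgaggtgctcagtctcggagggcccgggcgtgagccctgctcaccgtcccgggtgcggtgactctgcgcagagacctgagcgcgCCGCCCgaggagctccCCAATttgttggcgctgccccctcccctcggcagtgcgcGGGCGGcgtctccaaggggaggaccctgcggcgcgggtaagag
Col4a4 (chr1:82586800-82587099, minus strand): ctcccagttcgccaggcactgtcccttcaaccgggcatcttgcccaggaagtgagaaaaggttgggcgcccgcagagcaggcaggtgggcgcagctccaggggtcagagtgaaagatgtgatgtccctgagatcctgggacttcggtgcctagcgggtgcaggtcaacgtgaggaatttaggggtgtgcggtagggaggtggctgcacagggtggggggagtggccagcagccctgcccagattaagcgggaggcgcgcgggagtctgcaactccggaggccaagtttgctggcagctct
Col6a3 (chr1:90843922-90844221, minus strand): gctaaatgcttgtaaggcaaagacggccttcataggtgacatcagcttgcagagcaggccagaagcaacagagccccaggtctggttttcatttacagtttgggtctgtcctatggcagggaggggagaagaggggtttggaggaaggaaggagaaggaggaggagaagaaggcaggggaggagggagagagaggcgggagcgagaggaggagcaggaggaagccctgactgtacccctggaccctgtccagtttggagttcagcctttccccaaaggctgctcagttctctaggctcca
Col8a1 (chr16:57754688-57754987, minus strand): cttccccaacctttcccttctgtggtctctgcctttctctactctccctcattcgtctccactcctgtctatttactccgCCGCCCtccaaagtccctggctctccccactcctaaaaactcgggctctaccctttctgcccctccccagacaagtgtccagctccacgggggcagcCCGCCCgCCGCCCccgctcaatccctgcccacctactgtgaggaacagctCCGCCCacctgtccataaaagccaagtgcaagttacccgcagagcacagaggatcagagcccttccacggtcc
The Col4a1 and Col4a2 windows share 78 bases, read from opposite strands, and their starts lie 21 bp apart. The Col4a2 window holds 3 GC boxes and CCAAT letters 32 bases before the start. The Col4a1 window holds 1 GC box and the reverse complement of CCAAT 145 bases before the start. The Col8a1 window holds 4 GC boxes, and the Col4a4 and Col6a3 windows hold none of the searched letters. Other chains of these classes that fell in the hyperoxic atrium, not printed here, were mixed. Col4a6 has 1 GC box, Col6a6 has 2, Col6a2 has windows with 3 and 1, Col6a1 has none, and Col4a3 has no window. A match is a description of the letters in the window and says nothing of what binds there.

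Col3a1, the single chain of type III collagen, was the most abundant collagen transcript per kb in all 4 groups. Per kb of exon it stood at 352 CPM in hyperoxic atria, 646 CPM in room-air atria, 206 CPM in hyperoxic ventricles and 228 CPM in room-air ventricles. Among all genes it ranked 21st by CPM in hyperoxic atria, 10th in room-air atria and 30th in both ventricular groups. Col1a1 and Col1a2, the chains of type I collagen, followed in the room-air atria with 338 and 225 CPM per kb. In the ventricles the next places belonged to the basement membrane chains Col4a1, with 197 CPM per kb in hyperoxia and 213 in room air, and Col4a2, with 149 and 166. The 5 chains Col3a1, Col1a2, Col1a1, Col4a1 and Col4a2 together made up 73.9% of all collagen CPM in hyperoxic atria, 72.4% in room-air atria, 74.0% in hyperoxic ventricles and 76.4% in room-air ventricles. Col4a1 alone made up 11.1% in hyperoxic atria, 7.35% in room-air atria, 18.7% in hyperoxic ventricles and 18.1% in room-air ventricles, the larger part being in the ventricles.

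Collagen transcripts made up a smaller share of the hyperoxic atrial libraries than of the room-air ones. The 44 genes held 1.66%, 0.856%, 1.38%, 0.902% and 1.32% of all counts in hyperoxic atria 1 to 5, against 2.14%, 2.14%, 2.11%, 1.87% and 2.13% in room-air atria 1 to 5. The groups did not overlap, and the lowest values were those of hyperoxic atria 2 and 4, the libraries with the negative length slope. In the ventricles the share was 0.797%, 0.812%, 0.687%, 0.774% and 0.679% in hyperoxia and 0.903%, 0.658%, 0.9602%, 0.661% and 0.818% in room air, and these groups overlapped. In tissue RNA of this kind, fewer collagen-producing cells and less collagen RNA per cell cannot be told apart. Summed by class, fibrillar chains reached 7312 ± 1270 CPM in hyperoxic atria against 13110 ± 619 CPM in room-air atria (SD, n = 5 each), and network chains 733 ± 206 against 1638 ± 76.7 CPM. FACIT chains reached 592 ± 159 against 1062 ± 60.8 CPM. For each of these classes every hyperoxic atrium was below every room-air atrium. Basement membrane chains summed to 2362 ± 805 CPM in hyperoxic atria and 2674 ± 199 CPM in room-air atria, and here the groups overlapped, with hyperoxic atria 1 and 3 above all room-air atria and hyperoxic atria 2 and 4 below them.

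**Figure D1:**
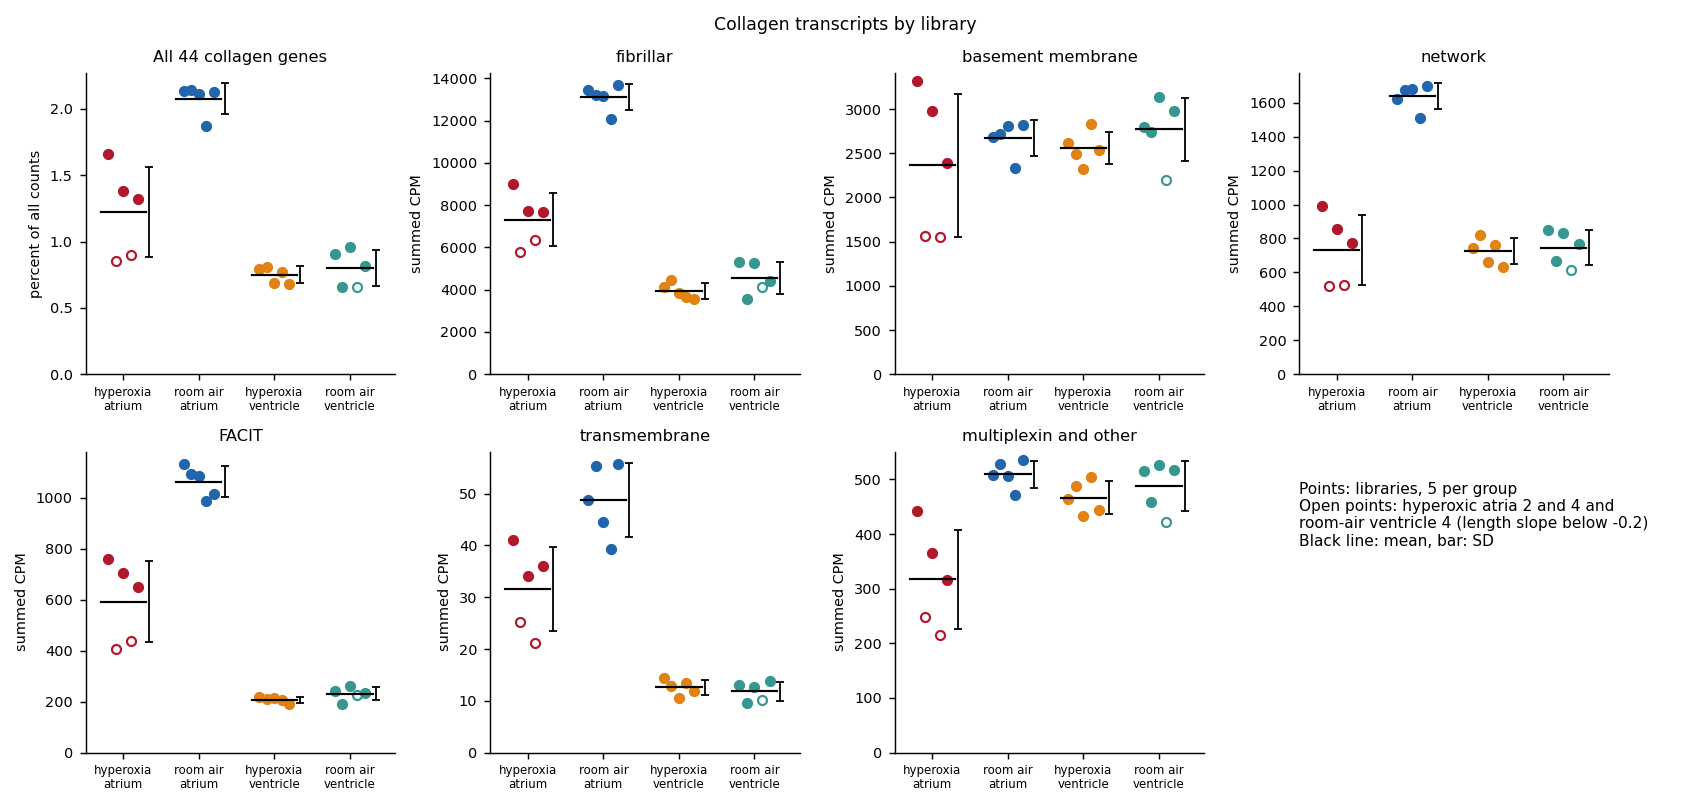
Share of all counts held by the 44 collagen genes (percent) and summed CPM of each class, by library; filled points are libraries, open points the 3 libraries with a negative length slope, lines and bars the mean and SD of 5 libraries. Hyperoxic atria hold 0.856% to 1.66% of counts against 1.87% to 2.14% in room-air atria, while the basement membrane sums overlap between these groups.

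In the left atrium, the comparison of hyperoxia with room air asks how the oxygen of the first days of life goes with collagen transcripts of that chamber. Of the 41 collagen genes tested, 22 fell (53.7%, where 24.2% of all genes tested fell) and 2 rose (4.88%, where 19.7% of all genes rose). The median log2 difference was -0.66 over the collagen genes and -0.06 over all genes. The chains of types I and III, the type V chain Col5a1, 4 type VI chains, 3 of the rarer type IV chains and the FACIT chain Col14a1 were among those lower, while Col4a1, Col4a2, Col5a2 and Col5a3 were not called. Beside this, 10 of 12 fibroblast markers fell and 1 rose, and their summed level was 1517 to 1786 CPM in hyperoxic atria against 2693 to 2920 CPM in room-air atria, with no marker at 0 in any group. The part that this marker difference plays in the collagen result was not tested.

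Among the fibrillar chains, 6 of 11 fell in the hyperoxic atrium and none rose. Col3a1 had 4068, 2888, 3533, 3115 and 3691 CPM in hyperoxic atria 1 to 5, against 6329, 6479, 6340, 6070 and 6476 CPM in room-air atria 1 to 5. The 5 hyperoxic values all lay below the 5 room-air values, and the log2 difference was -0.87 ± 0.12 (adjusted p = 3.86e-06). Col1a1, the more numerous chain of type I collagen, had 1493, 898, 1254, 1005 and 1160 CPM in hyperoxic atria against 2300, 2055, 2157, 1891 and 2688 CPM in room-air atria. Col1a2, its partner chain, had 1896, 1266, 1620, 1407 and 1572 CPM in hyperoxic atria against 2970, 2805, 2833, 2518 and 2863 CPM in room-air atria. Neither pair of groups overlapped, and the type I chains fell by similar amounts, -0.93 ± 0.17 for Col1a1 (adjusted p = 0.000102) and -0.85 ± 0.13 for Col1a2 (adjusted p = 1.75e-05). The largest fibrillar decrease was that of Col24a1, a minor fibrillar chain, which averaged 30.8 ± 14.5 CPM in hyperoxic atria and 103.8 ± 12.4 CPM in room-air atria and fell by 1.75 on the log2 scale, or 3.37-fold. Col27a1, another minor fibrillar chain, fell by 0.64 on the log2 scale, with groups that overlapped.

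The chains of type V collagen, which starts fibrils and limits their width, parted from each other. Col5a1 and Col5a2, chosen for display after their values were seen, usually assemble in the same molecule. Col5a1 had 549, 258, 456, 259 and 408 CPM in hyperoxic atria against 826, 809, 804, 698 and 772 CPM in room-air atria, with no overlap and a log2 difference of -1.02 ± 0.16 (adjusted p = 2.52e-05). Col5a2 had 876, 438.5, 782, 508 and 749 CPM in hyperoxic atria against 850.4, 874, 819.6, 731.5 and 721 CPM in room-air atria, which overlapped. It was not called, with -0.25 ± 0.15 (adjusted p = 0.174), and the low values were those of hyperoxic atria 2 and 4. Per kb, the log2 ratio of Col5a1 to Col5a2 was -0.50, -0.59, -0.60, -0.80 and -0.70 in hyperoxic atria against 0.13, 0.06, 0.15, 0.11 and 0.28 in room-air atria. The ratio was below 0 in every hyperoxic atrium and above 0 in every room-air one, and it did not part the ventricles, where it was 0.58 ± 0.22 in hyperoxia and 0.56 ± 0.13 in room air. Ratios were also taken for 3 other pairs of partner chains, and each overlapped between the atrial groups: Col4a1 over Col4a2 was 0.21 ± 0.12 in hyperoxic atria and 0.27 ± 0.05 in room-air atria, Col6a1 over Col6a2 was 0.86 ± 0.07 and 0.91 ± 0.03, and Col1a1 over Col1a2 was 0.49 ± 0.07 and 0.58 ± 0.14 (log2 per kb, SD, n = 5 each). These ratios are descriptions with no test of their own. Not called among the fibrillar chains were also Col11a1 and Col11a2, which co-assemble with type V or type II chains (0.41 ± 0.20 and -0.66 ± 0.30), Col5a3 (-0.25 ± 0.21) and the cartilage chain Col2a1, which had under 1 CPM in every library. Without hyperoxic atria 2 and 4 and room-air ventricle 4, Col11a1 rose by 0.74 ± 0.15.

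**Figure D2:**
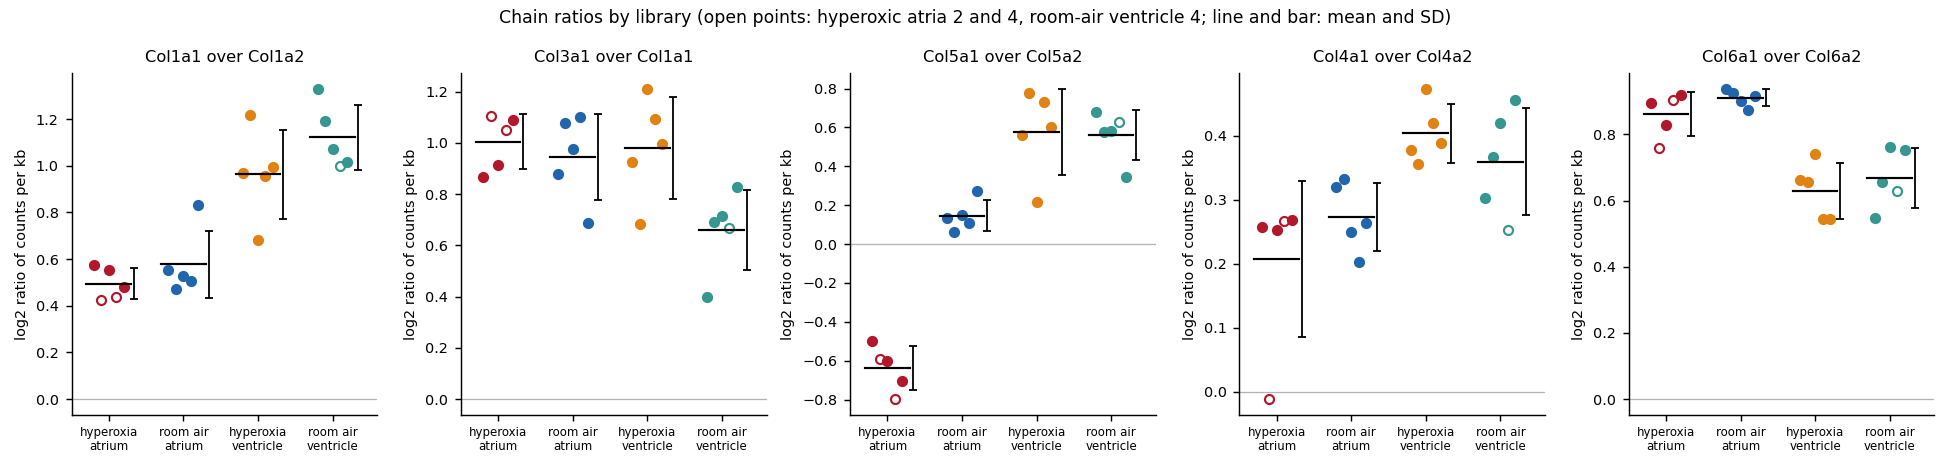
Log2 ratio of counts per kb of exon between 5 pairs of chains, by library; open points are the 3 libraries with a negative length slope, lines and bars the mean and SD of 5 libraries. Col5a1 over Col5a2 lies between -0.80 and -0.50 in hyperoxic atria and between 0.06 and 0.28 in room-air atria, while Col6a1 over Col6a2 overlaps between the same groups.

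Of the 6 basement membrane chains, 3 fell in the hyperoxic atrium, and they were the rarer ones. Col4a4 had 12.5, 6.49, 11.2, 9.36 and 15.5 CPM in hyperoxic atria against 25.9, 30.9, 38.0, 25.6 and 31.3 CPM in room-air atria, a 2.75-fold difference with no overlap (-1.46 ± 0.22, adjusted p = 1.27e-05). Its head-to-head neighbour Col4a3, which joins it in the glomerular basement membrane of the kidney, averaged 3.05 ± 1.64 CPM in hyperoxic atria and 12.5 ± 2.73 CPM in room-air atria (-2.02 ± 0.38). Both genes of this pair were lower in all 5 hyperoxic atria than in any room-air atrium. Col4a6, an X-linked chain of smooth muscle basement membranes, had 22.9, 10.6, 19.3, 10.9 and 22.7 CPM in hyperoxic atria against 31.1, 38.4, 33.3, 32.8 and 37.6 CPM in room-air atria. Again the groups did not overlap (-1.001 ± 0.186, adjusted p = 0.000163), and with the share of Y-linked reads as a covariate the difference was -1.05. The other X-linked chain, Col4a5, was not called (-0.47 ± 0.20, adjusted p = 0.0631).

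Col4a1 and Col4a2, which together form the basement membrane molecule of most tissues, were not called in either chamber. Col4a1 had 1790, 783, 1604, 836 and 1261 CPM in hyperoxic atria against 1437, 1443, 1449, 1196 and 1476 CPM in room-air atria. Col4a2, shown beside it after its values were seen, had 1327, 699.9, 1194, 616 and 928 CPM in hyperoxic atria against 1022, 1016, 1080, 922 and 1091 CPM in room-air atria. Both chains followed the same order over the hyperoxic atria except at the bottom, where atria 2 and 4 changed places, and the hyperoxic values lay on both sides of the room-air ones. The log2 differences were -0.16 ± 0.18 and -0.11 ± 0.16, and without the 3 libraries with a negative length slope they were 0.15 and 0.17. The overlapping windows of Col4a1 and Col4a2 are printed above, as is the window of Col4a4 but none of Col4a3. A link between start regions and these differences was not tested. With only the libraries that held more Y-linked than Xist reads, which leaves hyperoxic atrium 2 alone in its group, Col4a1 and Col4a2 were called at -0.84 and -0.55.

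All 4 of the type VI chains above 1 CPM fell in the hyperoxic atrium. Col6a3, the largest type VI chain, had 178, 76.8, 161, 98.7 and 146 CPM in hyperoxic atria against 401.9, 403, 414, 345 and 378 CPM in room-air atria. The gap between the highest hyperoxic and the lowest room-air value was wider than the spread among hyperoxic atria, and the difference was -1.56 ± 0.17 (adjusted p = 1.84e-07, 2.94-fold). Col6a6, a chain that can take the place of Col6a3 in the molecule, had 15.8, 11.3, 13.8, 10.5 and 18.1 CPM in hyperoxic atria against 33.6, 48.9, 45.6, 40.7 and 36.8 CPM in room-air atria (-1.56 ± 0.14, adjusted p = 2.47e-08). The groups did not overlap here either. Col6a1 and Col6a2, the constant partners in the type VI molecule, averaged 246 ± 66.1 and 257 ± 65.3 CPM in hyperoxic atria, against 576 ± 30.6 and 582.5 ± 26.4 CPM in room-air atria, and fell by 1.23 and 1.18 on the log2 scale. Col6a5, a further type VI chain, had 0.509 ± 0.273 CPM in hyperoxic atria and 0.408 ± 0.117 CPM in room-air atria and was not called.

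Against this pattern, Col8a1, a chain of the short-chain network collagen VIII of vessels and valves, was higher in the hyperoxic atrium. It is shown by library after its values were seen, with 104, 36.6, 87.6, 45.0 and 63.3 CPM in hyperoxic atria against 43.6, 29.1, 33.0, 29.0 and 38.7 CPM in room-air atria. Hyperoxic atria 1, 3, 4 and 5 lay above all room-air atria and atrium 2 lay among them (0.96 ± 0.29, adjusted p = 0.00993). The call was lost with the Y-linked covariate, where the difference was 0.76. With only the libraries of more Y-linked than Xist reads it was 0.08 and not called, but hyperoxic atrium 2, which has a negative length slope, then stands alone in its group. Its partner chain Col8a2 had 9.68, 7.11, 8.92, 7.25 and 9.01 CPM in hyperoxic atria against 7.88, 8.24, 10.2, 7.68 and 8.52 CPM in room-air atria, overlapping and not called (-0.02 ± 0.18). Col7a1, the chain of the anchoring fibrils of skin, was not called either (0.23 ± 0.24).

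FACIT chains gave both the largest fold decrease and the largest fold increase of the 41 genes, each at a low level. Col22a1, a chain of tissue junctions such as those of muscle with tendon, had 1.84, 0.680, 1.17, 0.447 and 0.713 CPM in hyperoxic atria against 8.90, 9.91, 7.76, 6.75 and 5.00 CPM in room-air atria. The highest hyperoxic atrium stood well below the lowest room-air atrium, and the difference was -2.96 ± 0.45, or 7.8-fold (adjusted p = 1.73e-05). Col9a1 rose by 2.19 ± 0.65 (adjusted p = 0.00875), with 0.518 ± 0.181 CPM in hyperoxic atria and 0.111 ± 0.0447 CPM in room-air atria, which means 97 and 21 reads over 5 libraries each. Its partner in type IX collagen of cartilage, Col9a2, went the other way and had 22.1, 14.0, 15.5, 12.3 and 14.3 CPM in hyperoxic atria against 51.6, 57.2, 41.2, 45.8 and 46.6 CPM in room-air atria. These groups did not overlap (-1.63 ± 0.14), and its adjusted p of 9.94e-09 was the smallest of any collagen gene in this comparison. The third type IX chain, Col9a3, was not called (-0.90 ± 0.45), and no cartilage marker other than Comp averaged above 5 CPM in either atrial group. Col14a1, a chain on the surface of type I fibrils, had 414, 221.5, 377.5, 244 and 394 CPM in hyperoxic atria against 736, 723, 708, 639.9 and 705.5 CPM in room-air atria (-1.09 ± 0.14, adjusted p = 1.81e-06), with no overlap. Col16a1, a FACIT chain of skin and cartilage matrix, fell by 0.65 on the log2 scale, and Col12a1, the FACIT chain closest in build to Col14a1, was not called (0.12 ± 0.26), with 123 ± 49.6 CPM in hyperoxic atria and 113 ± 19.1 CPM in room-air atria. Col20a1, a FACIT chain of little-known role, was not called (-0.09 ± 0.27).

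Of the 4 transmembrane chains, 3 fell in the hyperoxic atrium. Col25a1, first known from brain, had 2.06, 1.22, 2.09, 0.735 and 2.42 CPM in hyperoxic atria against 5.78, 6.43, 4.38, 3.28 and 4.77 CPM in room-air atria (-1.52 ± 0.28, adjusted p = 0.000133). Col13a1, a chain of cell adhesion sites, had 2.48, 2.58, 2.33, 1.09 and 1.97 CPM in hyperoxic atria against 4.56, 6.15, 5.39, 4.27 and 4.33 CPM in room-air atria (-1.24 ± 0.24, adjusted p = 0.000229). Neither gene overlapped between the groups. Col23a1, which is shed from the cell surface, fell by 0.49 on the log2 scale with overlapping groups, and Col17a1, the chain of epithelial hemidesmosomes, was not called (-0.40 ± 0.46). Among the multiplexins, Col15a1, which lies at the outer face of basement membranes, had 157.5, 78.4, 119.7, 80.5 and 109 CPM in hyperoxic atria against 224, 238, 257, 232 and 266 CPM in room-air atria, with no overlap (-1.16 ± 0.14, adjusted p = 9.86e-07). Col18a1, the source of endostatin, was not called (-0.37 ± 0.15, adjusted p = 0.056), nor was Col26a1 (0.01 ± 0.13). Col28a1, a chain seen around peripheral nerve, had 0.844, 0.085, 0.437, 0.032 and 0.456 CPM in hyperoxic atria against 0.397, 0.824, 0.938, 0.750 and 1.56 CPM in room-air atria. The groups overlapped (-1.23 ± 0.48, adjusted p = 0.0439), and the call was lost in 14 of 21 alternative settings.

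Of the 24 atrial calls, 19 held in every alternative setting in which the gene was tested. Among them were Col1a1, Col1a2, Col3a1, Col5a1 and the 4 type VI chains. Col9a1 also counts among them, but a filter at 1 CPM removed it, so it was tested in 20 of 21 settings. Without the 3 libraries with a negative length slope, 20 collagen genes fell and 3 rose in the atrium. The difference of Col3a1 was then -0.75 and that of Col6a3 -1.26. The share of all genes called in that fit is not set beside these counts.

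**Figure D3:**
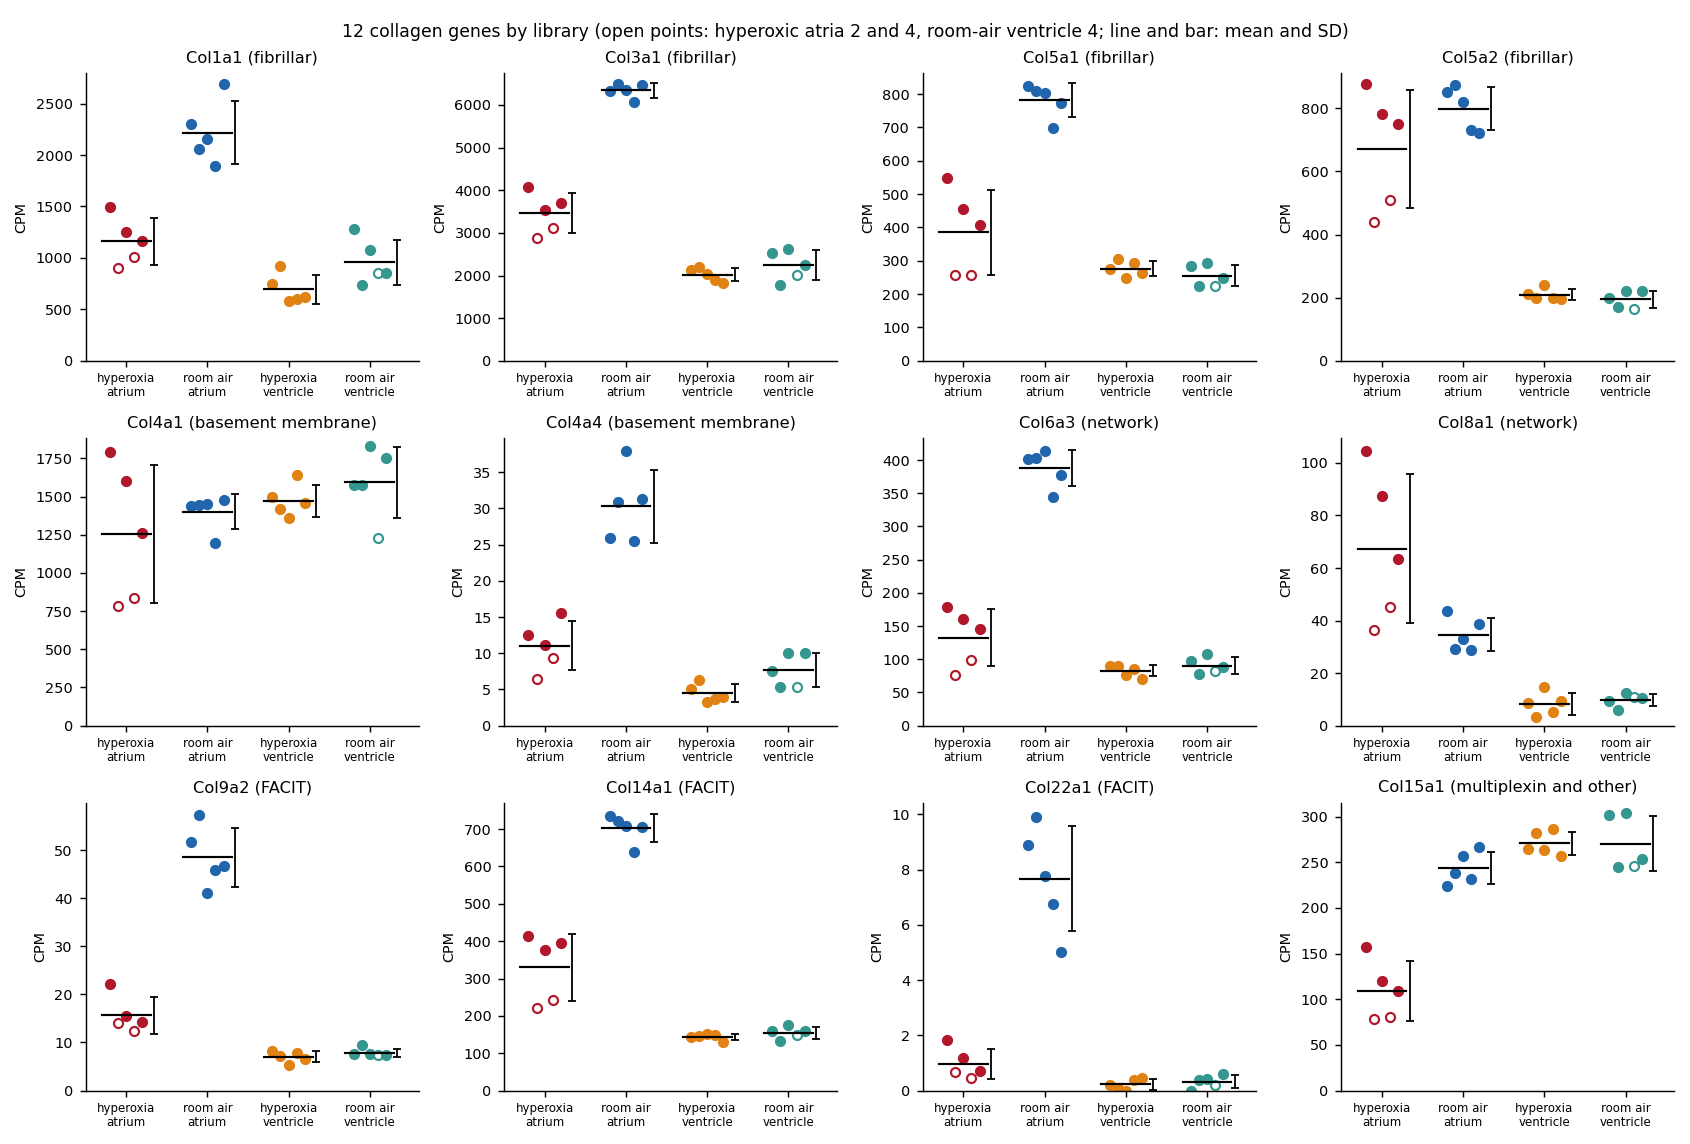
CPM of 12 collagen genes by library and group; open points are the 3 libraries with a negative length slope, lines and bars the mean and SD of 5 libraries, and every axis starts at 0. Col1a1, Col3a1, Col5a1, Col4a4, Col6a3, Col9a2, Col14a1, Col22a1 and Col15a1 do not overlap between hyperoxic and room-air atria, whereas Col5a2, Col4a1 and Col8a1 do.

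In the left ventricle, the same comparison gave far fewer calls. Of the 41 collagen genes, 2 fell (4.88%, where 5.28% of all genes fell) and 0 rose (where 5.64% of all genes rose), which is close to the share among all genes. The median log2 difference was -0.13 over the collagen genes and -0.01 over all genes. Col4a4 had 5.05, 6.31, 3.29, 3.67 and 4.02 CPM in hyperoxic ventricles 1, 2, 4, 5 and 6, against 7.61, 5.39, 10.04, 5.38 and 10.02 CPM in room-air ventricles 1 to 5. The groups overlapped through hyperoxic ventricle 2 (-0.79 ± 0.23, adjusted p = 0.0334). Col8a2 had between 2.27 and 3.58 CPM in hyperoxic ventricles, with a median of 2.89, against 6.75, 2.85, 4.95, 4.11 and 3.04 CPM in room-air ventricles, again with overlap (-0.62 ± 0.20, adjusted p = 0.0471). Among fibrillar chains, Col1a1 had 749, 921, 585, 597 and 616 CPM in hyperoxic ventricles against 1283, 733, 1073, 851 and 850.4 CPM in room-air ventricles and was not called (-0.47 ± 0.17, adjusted p = 0.0665). Col3a1 had 2125, 2211, 2026, 1905 and 1834 CPM in hyperoxic ventricles against 2532, 1769, 2631, 2021 and 2256 CPM in room-air ventricles (-0.15 ± 0.12). Both overlapped between the groups. The 4 main type VI chains lay near 0, with -0.05 ± 0.15 for Col6a1, -0.01 ± 0.14 for Col6a2, -0.13 ± 0.16 for Col6a3 and -0.01 ± 0.14 for Col6a6. Col15a1 was at 0.00 ± 0.14 and Col14a1 at -0.11 ± 0.14. Col22a1 had at most 0.594 CPM in any ventricle. Of the 2 ventricular calls, 0 held in every alternative setting. With the length slope as a covariate 13 collagen genes fell, among them Col1a1, Col3a1, Col4a1 and Col6a1. With the Myl7 or the Y-linked covariate 0 collagen genes were called. The shares of all genes above belong to the fit without covariates, and no such share is set beside these counts. The length slope was between 0.038 and 0.099 in hyperoxic ventricles and between -0.226 and 0.025 in room-air ventricles, and its part in the ventricular result was not tested beyond these fits.

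**Figure D4:**
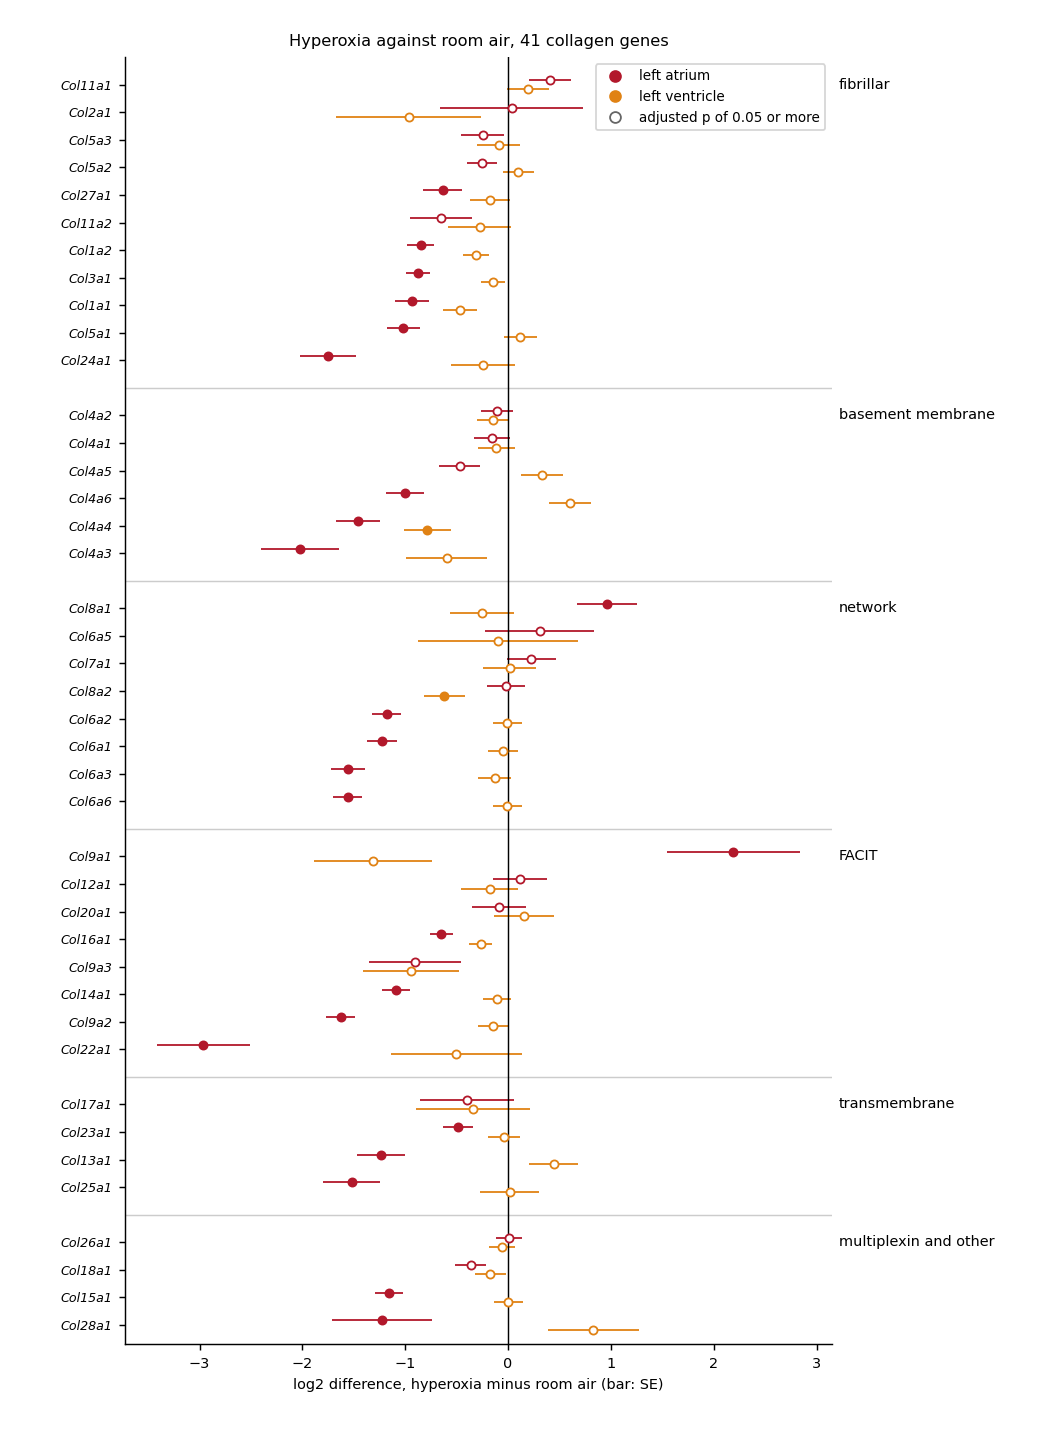
Log2 difference of 41 collagen genes, hyperoxia minus room air, for atria and for ventricles; bars are SE, filled points adjusted p under 0.05, n = 5 libraries per group. In the atrium 22 genes lie below 0 and 2 above it among the filled points, in the ventricle 2 below and 0 above.

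The difference between the responses was itself tested, as the atrial minus the ventricular log2 difference. It was called for 20 of the 41 collagen genes, with 18 lower in the atrium (where 19.5% of all genes were) and 2 higher (where 17.0% of all genes were). The calls included 4 type VI chains, with -1.42 ± 0.23 for Col6a3, -1.55 ± 0.20 for Col6a6, -1.18 ± 0.21 for Col6a1 and -1.17 ± 0.20 for Col6a2. For these 4 chains the ventricular differences were near 0. Col6a5, the other type VI chain tested, was not called (0.40 ± 0.95). Of the fibrillar chains, Col3a1 (-0.72 ± 0.17), Col1a2 (-0.54 ± 0.18), Col5a1 (-1.14 ± 0.23) and Col24a1 (-1.51 ± 0.41) differed between the chambers, whereas the difference for Col1a1 was -0.47 ± 0.23 and was not called (adjusted p = 0.12). Among FACIT chains Col9a2 (-1.49 ± 0.20), Col14a1 (-0.98 ± 0.19) and Col22a1 (-2.46 ± 0.79) differed, and Col9a1 differed in the other direction (3.50 ± 0.87). Col15a1 (-1.16 ± 0.20), Col28a1 (-2.05 ± 0.66), Col13a1 (-1.68 ± 0.34) and Col25a1 (-1.54 ± 0.40) were lower in their atrial response too. Of the basement membrane chains, Col4a6 (-1.60 ± 0.28), Col4a5 (-0.80 ± 0.29) and Col4a3 (-1.43 ± 0.54) were called. The X-linked pair stood at -1.001 for Col4a6 and -0.47 for Col4a5 in the atrium and at 0.60 and 0.33 in the ventricle, and in the ventricle neither was called. Col4a4, lower in both chambers, was not called here (-0.67 ± 0.31, adjusted p = 0.0952). Col8a1 was the second gene with a higher atrial response (1.22 ± 0.42, adjusted p = 0.0285). In every alternative setting in which the gene was tested, 12 of these 20 calls held, and Col9a1 among them was tested in 30 of 31. With the length slope as a covariate, 11 collagen genes were lower and 5 higher, the median moved to 0.04, and Col4a5 stood at 0.12. Without the 3 libraries with a negative slope, 13 were lower and 3 higher. The shares of all genes above do not belong to these 2 fits, and none is set beside their counts.

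Under either oxygen level, the atrium held more of most collagen chains than the ventricle. In hyperoxia 23 of the 41 genes were higher in the atrium (56.1%, where 25.2% of all genes were higher) and 7 were lower (17.1%, where 23.6% of all genes were lower). In room air 29 were higher in the atrium (70.7%, where 28.7% of all genes were higher) and 3 were lower (7.32%, where 26.3% of all genes were lower). A fit with only the libraries that held more Y-linked than Xist reads sets 1 hyperoxic atrium, number 2, against 2 hyperoxic ventricles. That atrium has a negative length slope. With 1 atrium, that fit cannot decide how far the hyperoxic counts depend on sex-linked reads, and its counts are not given here. In the fit of all 20 libraries, the median log2 difference, atrium minus ventricle, was 0.68 in hyperoxia and 1.27 in room air. These comparisons share libraries with the oxygen comparisons above and are not independent of them. Whether an atrium and a ventricle with the same number came from the same pup is not given.

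Genes named for the chamber comparison are the 2 of each class with the smallest p among those called. Col24a1, the minor fibrillar chain, had 30.8 CPM in atria and 3.54 CPM in ventricles in hyperoxia (3.12 ± 0.30). In room air it showed the widest gap of the 41 genes, with 103.8 CPM in atria and 4.19 CPM in ventricles (4.62 ± 0.32, adjusted p = 4.26e-11). Col5a2 was higher in hyperoxic atria by 1.68 ± 0.15, and Col1a2 was higher in room-air atria by 1.76 ± 0.13. Of the basement membrane chains, Col4a6 differed by 1.504 ± 0.195 in hyperoxia and 3.11 ± 0.21 in room air, and Col4a4 by 1.302 ± 0.23 and 1.98 ± 0.22. Col4a1 and Col4a2 were at similar levels in both chambers, with -0.23 ± 0.18 and -0.05 ± 0.16 in hyperoxia and -0.19 ± 0.18 and -0.10 ± 0.16 in room air. FACIT chains were marked by Col12a1 (3.16 ± 0.29 in hyperoxia), Col16a1 (1.56 ± 0.11 in hyperoxia and 1.94 ± 0.12 in room air) and Col9a2 (2.63 ± 0.15 in room air). Col23a1, a transmembrane chain, was higher by 2.03 ± 0.15 in hyperoxic atria and 2.48 ± 0.16 in room-air atria, and Col25a1 by 1.27 ± 0.28 in room air.

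The gap between the chambers differed with oxygen for 4 type VI chains. Col6a3 was higher in the atrium by 0.68 ± 0.16 in hyperoxia and by 2.10 ± 0.17 in room air. Col6a1 was at 246 CPM in atria and 266.5 CPM in ventricles in hyperoxia and was not called (-0.11 ± 0.15), while in room air it was at 576 and 275.5 CPM and was called (1.06 ± 0.15). Col6a2 was lower in the atrium in hyperoxia (-0.35 ± 0.14, adjusted p = 0.0441) and higher in room air (0.82 ± 0.14). Col6a6 was lower in hyperoxic atria than in hyperoxic ventricles, with 13.9 against 32.8 CPM (-1.24 ± 0.14), and at 41.1 against 33.0 CPM in room air it was not called (0.32 ± 0.14). Col15a1 followed the same course, with 109 against 271 CPM in hyperoxia (-1.31 ± 0.14) and 243.5 against 270.2 CPM in room air (-0.15 ± 0.14). Col13a1 was lower in hyperoxic atria than in hyperoxic ventricles (-0.81 ± 0.24, a call lost in 2 of 22 alternative settings) and higher in room-air atria than in room-air ventricles (0.87 ± 0.24). Col28a1 was lower in the atrium in hyperoxia (-2.62 ± 0.48) and not called in room air (-0.56 ± 0.45). The difference of these gaps is the difference of the responses, which was called for each of Col6a3, Col6a1, Col6a2, Col6a6, Col15a1, Col13a1 and Col28a1. Col8a1 was higher in atria by 3.03 ± 0.32 in hyperoxia and by 1.81 ± 0.30 in room air. Lower in the atrium under both conditions were Col26a1, a little-known collagen first described in testis and ovary (-1.23 ± 0.13 in hyperoxia and -1.299 ± 0.129 in room air), and Col5a3, the third type V chain (-1.11 ± 0.21 and -0.95 ± 0.21). Col18a1 was higher in room-air atria (0.40 ± 0.15), a call lost in 8 of 22 alternative settings.

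**Figure D5:**
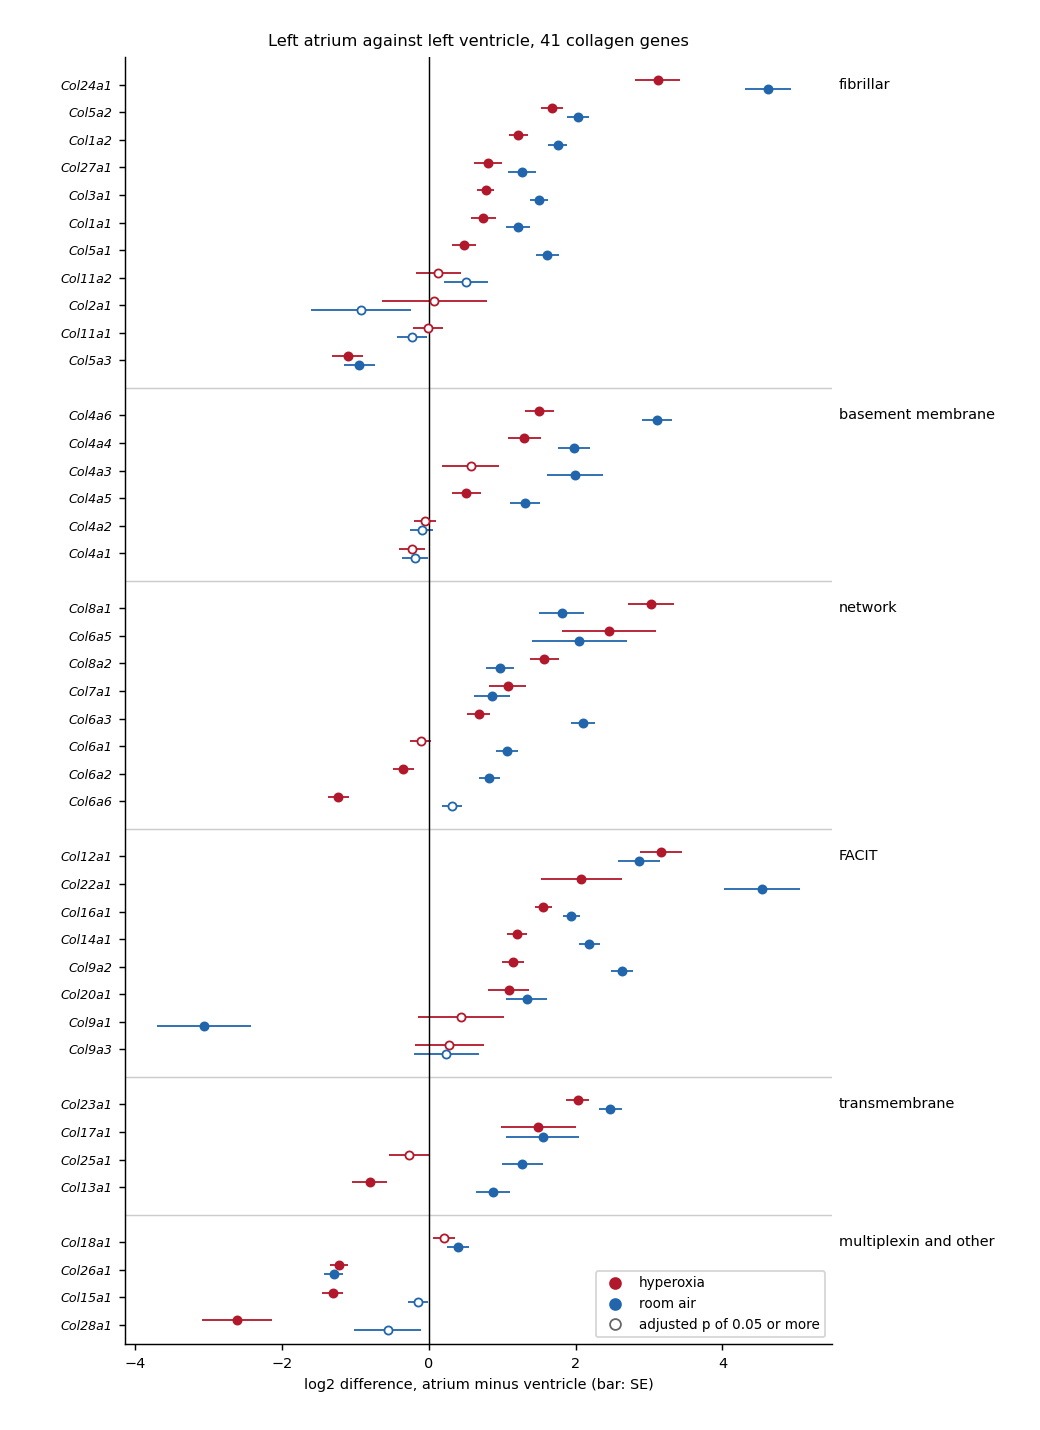
Log2 difference of 41 collagen genes, left atrium minus left ventricle, in hyperoxia and in room air; bars are SE, filled points adjusted p under 0.05, n = 5 libraries per group. In hyperoxia 23 genes are called higher and 7 lower in the atrium, in room air 29 higher and 3 lower, and Col6a2, Col6a6, Col15a1, Col13a1 and Col28a1 are called lower in hyperoxia and not in room air, with a difference of the gaps that was itself called.

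Genes that handle collagen were read from lists of enzymes, carriers and regulators. Counts for the hyperoxic atrium are to be read against 24.2% of all genes lower and 19.7% higher. There, 7 of 20 genes of procollagen modification and folding fell and 1 rose. The one that rose was P3h2, a prolyl 3-hydroxylase that acts on type IV collagen, with 24.7 CPM in hyperoxic atria and 5.10 CPM in room-air atria (2.27 ± 0.19). Colgalt2, which adds galactose to hydroxylysine, had the next smallest p (-1.43 ± 0.22). Of 15 genes of export and propeptide cleavage, 7 fell, led by Adamts2, the protease that removes the amino-terminal propeptide (159 against 388 CPM, -1.29 ± 0.13), and Pcolce2, an enhancer of the carboxy-terminal cleavage (-1.09 ± 0.13), and 2 rose. Of 16 genes of crosslinking and fibril assembly, 10 fell and 1 rose: Tgm2, a transglutaminase, rose by 1.27 ± 0.09, and Lum, a proteoglycan that binds fibrils and is also on the fibroblast list, was at 108 against 273 CPM (-1.34 ± 0.11). Of 11 receptors and uptake genes, 5 fell, with Antxr1 at -1.32 ± 0.12 and the uptake receptor Mrc2 at -0.83 ± 0.12, and 2 rose. Of 15 regulators, 8 fell and 3 rose, with Hey2, a transcriptional repressor downstream of Notch that is also on the ventricular muscle list, at -1.20 ± 0.16 and Scx, the tendon and valve factor scleraxis, at 1.53 ± 0.23.

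In the hyperoxic ventricle, where 5.28% of all genes fell and 5.64% rose, 4 of 20 modification and folding genes fell and 1 rose, P3h2 (0.60 ± 0.19), with Crtap, a partner of prolyl 3-hydroxylase, at -0.37 ± 0.10 and P4ha1, a prolyl 4-hydroxylase chain, at -0.29 ± 0.08. Of the 15 export and cleavage genes 2 fell, Pcolce2 (-0.79 ± 0.13) and Pcolce (-0.41 ± 0.09), and 1 rose. Of 16 crosslinking and assembly genes, 4 fell and 0 rose, with the proteoglycan Bgn at -0.54 ± 0.10 and the collagen-binding protein Sparc at -0.39 ± 0.09. Of the 11 receptors 2 rose, Lair1 (1.03 ± 0.26) and Antxr2 (0.30 ± 0.09), and none fell. Of 15 regulators Hey2 rose by 0.99 ± 0.15, and Meox1, a fibroblast transcription factor, had the smallest p of the list (-0.87 ± 0.11).

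Markers of several cell types moved with these groups. Among all genes tested, 24.2% fell and 19.7% rose in the hyperoxic atrium, and 5.28% fell and 5.64% rose in the hyperoxic ventricle. Besides the fibroblast markers above, 4 of 8 valve and cushion markers fell in the hyperoxic atrium and 1 rose, with a summed level of 258 to 393 CPM in hyperoxic atria against 564 to 745.5 CPM in room-air atria. This sum was mostly Tbx20, which averaged 271 of 329 CPM in hyperoxic atria and 553 of 642 CPM in room-air atria. Endothelial markers, of cells that lie on type IV collagen, fell in 7 of 7 cases in the hyperoxic atrium, with 624.9 to 826 CPM against 996 to 1178 CPM, and in 4 of 7 in the hyperoxic ventricle, with 1420 to 1627 CPM against 1856 to 2070 CPM. Of 9 mural and smooth muscle markers, 5 fell and 2 rose in the atrium, and of 6 macrophage markers 4 rose, with 202 to 322 CPM against 158 to 166 CPM. Epicardial and mesothelial markers rose in 3 of 7 cases in the atrium, with 485 to 533 CPM against 282 to 449 CPM. Glial markers, of cells next to Col28a1 in nerve, fell in 2 of 4 tested, with 7.21 to 10.3 CPM against 11.7 to 14.3 CPM. Of 5 cartilage markers tested, Cnmd rose (1.998 ± 0.396), Chad fell (-3.48 ± 0.60) and 3 were not called, with sums of 16.5 to 25.4 CPM against 19.7 to 26.2 CPM, and Snorc was at 0 in every group but the hyperoxic atria. Of 5 ventricular muscle markers 4 fell in the hyperoxic atrium, Hey2 among them, with sums of 389 to 777.5 CPM against 485 to 918 CPM. Of 5 atrial muscle markers, Tbx5 fell there (-1.12 ± 0.14), Nppa rose (1.62 ± 0.35), and Myl7, Myl4 and Sln were not called. The 5 markers summed to 26030 to 50200 CPM in hyperoxic atria against 17930 to 23080 CPM in room-air atria. Nppa averaged 20880 of 36390 CPM in hyperoxic atria and 6786 of 19560 CPM in room-air atria. In the ventricle 2 of these atrial markers fell, with sums of 232 to 858 CPM in hyperoxia against 1033 to 1944 CPM in room air. Of 4 lung and thymus markers tested 1 rose in the atrium, with sums of 0.656 to 6.19 CPM against 0.260 to 18.9 CPM. No marker of the other lists named here was at 0 in a whole group. In the ventricle the fibroblast sum was 1719 to 1922 CPM in hyperoxia against 1808 to 2075 CPM in room air. Between the chambers, 5 of 12 fibroblast markers were higher in the atrium and 5 lower in hyperoxia, and 10 were higher and 1 lower in room air. The shares of all genes were 25.2% higher and 23.6% lower in hyperoxia, and 28.7% higher and 26.3% lower in room air. The part of cell make-up in the collagen differences was not tested.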

How the data were processed

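Stranded mRNA sequencing of single left atria and left ventricles gave a table of gene counts per library, deposited by the authors as raw whole-number counts. Per the submitters' processing notes, the tools named are fastp 0.20.1, STAR 2.7.6a, Subread 2.0.1 with featureCounts and Salmon 1.3.0, with the GRCm38.p6 build; their order and settings are not given in the sources used here. Labels assigned all 20 libraries to 4 groups.

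The counts were fitted with edgeR 4.0.16 (R 4.3.3, limma 3.58.1) by the robust quasi-likelihood method with TMM scaling, filterByExpr and 1 mean per group, and p-values were adjusted by the Benjamini-Hochberg method over 16598 genes. The common biological coefficient of variation was 0.183. The fit was tested on simulated counts. Alternatives were DESeq2 1.42.0, other scalings, other filters on low counts, fits of the compared groups alone, covariates for Myl7, Y-linked reads and length slope, a replicate block and leaving out libraries. Replicates differed by more than sampling noise in every pair (chi-square per degree of freedom at least 12.25).

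The collagen genes, the gene lists and the markers were chosen with earlier results of these data known. Genes named per comparison are all collagen genes called for oxygen, and the 2 with the smallest p per class for chambers and per list for pathway genes. Values by library are given for the 2 genes of each class with the smallest p in the atrial oxygen comparison. They are also given for the genes called in the ventricle, with a range for Col8a2 in hyperoxic ventricles, and for Col1a1, Col3a1, Col4a1, Col6a3 and Col22a1. Col8a1, Col5a1, Col5a2 and Col4a2 were added after their values were seen. Other named genes have group means or differences only. Figures were drawn with matplotlib 3.10.9 in Python 3.11.15.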

Additional observations from a re-analysis of the deposited data

Results flagged for a closer look

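In 4 of the 100 sets of 5 libraries examined, 1 library lay far from the other 4, where chance gives about 1 in 20. Col4a1 was at 1200 CPM in room-air atrium 4, the lowest of that group. Col9a2 was at 9.38 CPM in room-air ventricle 2, above the other room-air ventricles. The log2 ratio per kb of Col1a1 over Col1a2 was 0.83 in room-air atrium 5, the highest of its group, and that of Col4a1 over Col4a2 was -0.01 in hyperoxic atrium 2, the lowest of its group.

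The response to hyperoxia differed between the chambers, by the interaction in the edgeR fit, for 20 collagen genes. The atrial minus ventricular log2 difference was above 0 for Col9a1 (3.50) and Col8a1 (1.22). It was below 0 for the fibrillar chains Col3a1 (-0.72), Col1a2 (-0.54), Col5a1 (-1.14) and Col24a1 (-1.51), and for the basement membrane chains Col4a3 (-1.43), Col4a5 (-0.80) and Col4a6 (-1.60). The type VI chains followed with Col6a1 (-1.18), Col6a2 (-1.17), Col6a3 (-1.42) and Col6a6 (-1.55). FACIT chains below 0 were Col9a2 (-1.49), Col14a1 (-0.98) and Col22a1 (-2.46). The remaining ones were Col13a1 (-1.68), Col25a1 (-1.54), Col15a1 (-1.16) and Col28a1 (-2.05).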

How the results depend on the processing

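The count of collagen genes called in the atrium stayed between 20 and 28 under the alternatives tried (24 as reported), and leaving out 1 library gave 23 to 28. For the difference of responses (20 as reported) it was 16 to 25, and 17 to 22 with 1 library left out. The chamber counts (30 in hyperoxia, 32 in room air) were 21 to 31 and 28 to 34, and 27 to 30 and 31 to 33 with 1 library left out. In the ventricle, 2 genes were called as reported, against 4 with DESeq2, 13 with the length slope covariate, 5 without the 3 libraries with a negative slope, and 0 with the Myl7 covariate, the Y-linked covariate, the libraries whose Y-linked reads outnumber Xist (which leaves 1 hyperoxic atrium and 2 hyperoxic ventricles), or no filter on low counts. Leaving out 1 library gave 0 to 3 there, with 0 without hyperoxic ventricle 4, 5 or 6 or room-air ventricle 1 or 3, and 1 without room-air ventricle 4 or 5. The difference of responses of Col4a5 was 0.12 with the length slope covariate. The cause of these changes was not tested. The counts here and in the next paragraph are of collagen genes alone, with no share of all genes called under each alternative beside them.

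With the replicate block, 27 genes were called in the atrium, 2 in the ventricle (1 higher and 1 lower), 20 for the difference of responses, 27 between hyperoxic chambers and 32 between room-air chambers. Atria and ventricles of the same number and oxygen level had correlated deviations of 0.006 to 0.272 in hyperoxia and -0.058 to 0.557 in room air, so the numbers were not taken as pairs. Hyperoxic atria and ventricles 1, 2, 4 and 5 did agree by number in whether Y-linked or Xist reads were more numerous. Whether the numbers mark the same pup is not known. Calls for Col4a3, Col4a5, Col8a1 and Col22a1 in the difference of responses, Col28a1 in the atrium, both ventricular genes, and Col18a1 between room-air chambers were lost when single libraries were left out. Depth limits Col9a1, Col28a1 and the other chains under 1 CPM, which rest on few reads.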
